A study of Homo sapiens with 6 samples.

Results

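Chromosome 19 carries the densest groups of zinc finger genes in the human genome, and 6 windows of that chromosome that cover such groups are described here for their open chromatin. The windows were chosen with earlier results of these data known, so their choice was not independent of the measured values. Once the windows were set, the regions were chosen by position, as rows of the deposited table whose midpoint lies in a window. In hg19 and in Mb, the windows were 11.70 to 12.65 in band 19p13.2, 19.90 to 24.40 in 19p12 and 36.90 to 38.30 in 19q13.12. The others were 44.30 to 45.00 in 19q13.31, 52.40 to 53.90 in 19q13.41 to 19q13.42, and 56.50 to 59.00 in 19q13.43. In all, 322 regions were found, out of 3098 on chromosome 19 and 118556 in the table, and the other 2776 regions of chromosome 19 were the comparison. Because the authors had called regions on the combined replicates of each population, merged both sets and removed blacklisted intervals, the presence, width and read level of a region took part in choosing it, and these are given as a description with no test.

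The libraries came from WA09, an established human embryonic stem cell line, sorted into GCTM-2highCD9highEPCAMhigh cells (the high population) and GCTM-2midCD9mid cells (the mid population, called low in the sample titles). GCTM-2 is an antibody to a pericellular matrix proteoglycan of pluripotent cells, CD9 is a tetraspanin and EPCAM an epithelial adhesion molecule. There were 3 biological replicates of each population, all from 1 line, so that nothing here speaks for other lines. No treatment was compared, and the paper's methods describe blebbistatin given to cultures before dissociation to single cells. The assay was FAST-ATAC, a digitonin-based protocol that lets Tn5 transposase insert sequencing adapters where DNA is open, and each value is the number of reads over a region. The whole table held between 15486251 and 29025274 reads per sample, and the 322 regions held between 55774 and 133307.

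Most zinc finger genes of these groups encode proteins with a KRAB domain and a row of zinc fingers. The fingers bind DNA, very often within transposable elements, and the KRAB domain recruits TRIM28 (KAP1), which brings in the histone methyltransferase SETDB1 and heterochromatin proteins. The genes arose by tandem duplication, so that neighbours are close relatives. In pluripotent cells the bodies and 3′ ends of many of these genes are known to carry heterochromatin marks while their promoters stay accessible. Well-known members are ZNF91 in 19p12, which silences SVA retrotransposons, and, in 19q13.43, ZNF274, which recruits SETDB1 to zinc finger genes, the imprinted gene PEG3, and ZSCAN4, a gene of early cleavage embryos and telomere maintenance. By symbol, the RefSeq annotation of GRCh38.p14 placed 265 of 573 protein-coding zinc finger genes (symbols starting with ZNF, ZFP, ZSCAN, ZKSCAN, ZIK or ZIM; 46.2%) on chromosome 19, and 241 of the 265 had another such gene as a direct neighbour. That annotation is of another build than the counts, so the label was checked for the chromosome only, and no region below is tied to a gene.

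Promoters of these genes differed slightly from others in letters. Of the 265 genes, 229 had a RefSeq promoter of 300 bases, with a median GC content of 60.0%, against 64.0% for the promoters of 956 other genes of chromosome 19. The median number of CpG dinucleotides was 20 and 21. The part of base composition in the results below was not tested.

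The zinc finger windows were sparse in open regions. They held 27.9 regions per Mb, against 58.4 in the rest of the chromosome, and open regions covered 3.81% of their length against 9.28%. The 19p12 window was the emptiest, with 68 regions in 4.5 Mb (15.1 per Mb). It held the longest stretch of any window without a region, 1218 kb from 22035445 to 23253914. The 19q13.43 window had a stretch of 575 kb (57107272 to 57682745), and in the other 4 windows the longest was between 73.7 and 161 kb. The 19q13.41 to 19q13.42 window was the densest at 46.7 per Mb. The median distance to the next region was 19467.5 bp in the windows and 8350 bp elsewhere on the chromosome. Uncalled stretches here include any interval that the authors removed as blacklisted.

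The regions that were there were mostly of medium width, and those were well filled. Of the 322, 186 (57.8%) were at least 1000 and under 2000 bp wide, against 36.3% of the other chromosome 19 regions. Regions of 2000 bp or more made up 13.35% against 25.4%, with 0 of 22 in the 19q13.31 window and 11 of 38 in the 19p13.2 window. Per kb of region, the median level over all samples was 8.18 CPM (counts scaled to library size, with factors from TMM, the trimmed mean of M-values) in the windows and 5.79 elsewhere on the chromosome. That gap lay in the middle width class, with 9.77 and 6.51 CPM per kb, whereas under 1000 bp the levels were 4.24 and 4.199 and at 2000 bp or more 10.8 and 10.1 CPM per kb.

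In the high population the windows were less accessible than in the mid population on the scale of all regions, yet less so than the rest of chromosome 19. The median log2 fold change of high over mid was -0.35 over the 322 regions, -0.49 over the other chromosome 19 regions and 0.03 over all regions (edgeR with replicate number as a block and TMM scaling). On that scale 301 of the 322 regions (93.5%) had a negative fold change, much as elsewhere on the chromosome (93.2%) and unlike all regions (46.5%), but with TMM factors taken from the other chromosome 19 regions 244 (75.8%) had a positive one and the median was 0.17. With those factors 53.7% of the other chromosome 19 regions and 92.3% of all regions were positive. Chromosome 19 had the lowest median of 23 chromosomes (-0.47), followed by chromosomes 22 (-0.35) and 17 (-0.26). Its share of all reads was 3.59% ± 0.284 for high and 5.13% ± 0.181 for mid libraries (SD, n = 3 each), with no overlap (p = 0.1 in a two-sided exact permutation test, which 3 against 3 cannot go below). So the windows lay between the chromosome and the genome.

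The nearest regions on either side of the window edges were set side by side, with no test. The 12 nearest inside had log2 fold changes from -0.68 to 0.06 (median -0.41), and the 12 nearest outside from -0.58 to -0.01 (median -0.45). The nearest one was not always close: outside, the distance from its midpoint to the edge ran from 1.23 to 3885 kb with a median of 11.6 kb, the farthest being those after 19p12 (3885 kb) and before 19q13.43 (285 kb).

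Within each window the order of the medians ran from 19q13.43, with -0.26, through 19q13.12 (-0.30), 19p12 (-0.36), 19q13.31 (-0.38) and 19p13.2 (-0.39) to 19q13.41 to 19q13.42, with -0.44. The quartiles of every neighbour in this order overlapped. All 6 medians lay above the -0.49 of the other chromosome 19 regions and below 0. In the 19q13.31 window, all 22 regions had a negative fold change, against 93.5% of all window regions and 93.2% of the other chromosome 19 regions. Scaled to the other chromosome 19 regions, 19 of the 22 (86.4%) were positive, against 75.8% of all window regions. The plot of fold changes by window shows how closely most regions sit together and which ones leave the cloud.

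**Figure D1:**
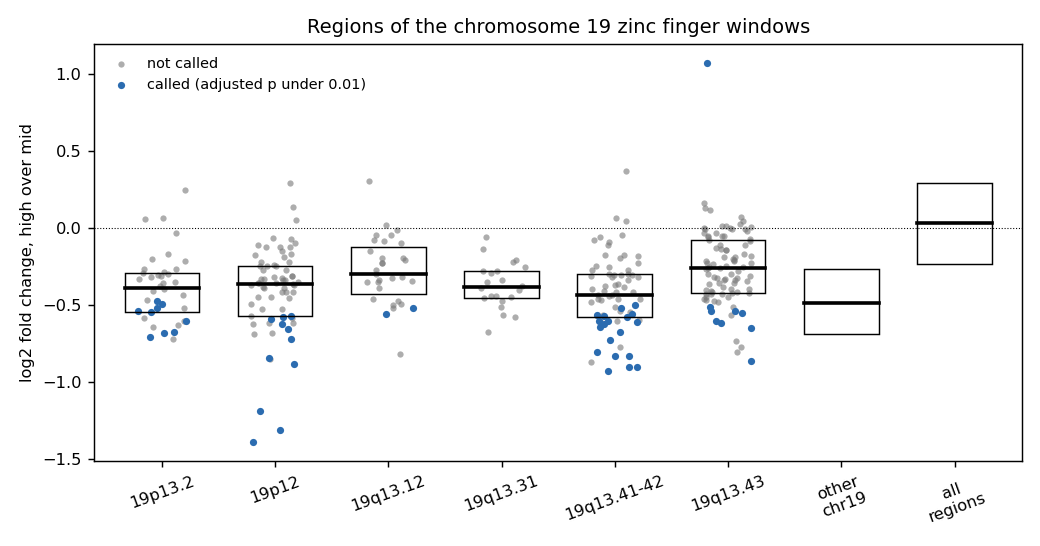
Log2 fold change of high over mid (y axis) for each region of the 6 windows (points, blue where the adjusted p was under 0.01), with boxes for the quartiles and thick lines for the medians, beside the same for the other chromosome 19 regions and all regions. The window medians lie between -0.44 and -0.26 on the scale of all regions, 3 regions of 19p12 lie under -1 and 1 of 19q13.43 lies above 1; scaled to the other chromosome 19 regions, the median of the windows is 0.17.

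At a Benjamini-Hochberg adjusted p under 0.01 in edgeR's quasi-likelihood test over all regions, 49 of the 322 regions (15.2%) were lower in the high population. That share was 3.77% over all regions and 32.8% over the other chromosome 19 regions (910 regions). A single region (0.311%) was higher, against 2.32% over all regions and 0.0360% over the other chromosome 19 regions. The calls were unevenly spread: 19 of 70 regions in the 19q13.41 to 19q13.42 window, 9 of 38 in 19p13.2, 11 of 68 in 19p12, 8 of 93 in 19q13.43, 2 of 31 in 19q13.12 and 0 of 22 in 19q13.31. At an unadjusted p under 0.05 there were 12 of 22 regions in that last window, 170 of 322 in all windows, 1703 of 2776 elsewhere on the chromosome and 32981 of 118556 in the table. With no replicate block 10 regions were called lower and 0 higher. With the block, a library whose partner is left out adds almost nothing to the comparison. Each refit without a single library thus nearly repeats the refit without its pair. Without the replicate 3 pair 67 were called lower, without mid replicate 3 alone 69 and without high replicate 3 alone 77. Without the replicate 2 pair 2 were called lower, without mid replicate 2 alone also 2, and without high replicate 2 alone 4. With these replicate 2 libraries left out, in the same order, the calls fell everywhere, from 4472 to 438, 432 and 839 over all regions and from 910 to 195, 192 and 318 elsewhere on the chromosome. They were 1312 and 492 with no replicate block, and 5500 and 1018 without high replicate 3. Without mid replicate 3 they were 4742 and 969, and without the replicate 3 pair 4793 and 979.

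The 49 called regions changed by modest amounts. Their log2 fold changes ran from -1.39 to -0.47 with a median of -0.61, which is 0.655 times the mid level, and 3 of them were under -1. All 49 were lower in each of the 3 same-numbered pairs, and in 48 every high value lay under every mid value. Calling on these same values favours both, so they add no support. Of all 322 regions, 171 (53.1%) were lower in each pair, against 68.6% of the other chromosome 19 regions and 22.2% of all regions. Over all 322 regions, 116 (36%) had every mid value above every high value, against 13.0% of all regions and 56.3% of the other chromosome 19 regions. The opposite held for 1 region (0.311%), against 12.9% of all regions and 0.324% of the other chromosome 19 regions. The called regions were wide, with a median of 1864 bp. Of the 49, 20 formed 9 runs in which no uncalled region lay between neighbours. The longest runs had 3 regions each, one in 19p13.2 spanning 67.1 kb and one in 19q13.41 to 19q13.42 spanning 53.0 kb. These windows also had the largest shares of called regions, 23.7% and 27.1%. No count of runs from elsewhere on the chromosome is set beside these, so they are a description and show no grouping of calls.

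Width and level were compared because wide, well-filled regions have more reads and so are easier to call. Among regions of 2000 bp or more, 22 of 43 (51.2%) were called lower in the windows and 554 of 705 (78.6%) elsewhere on the chromosome, with median log2 fold changes of -0.48 and -0.70. In the class from 1000 to under 2000 bp the shares were 12.4% and 29.7% and the medians -0.32 and -0.47. Under 1000 bp the order of the medians turned, with -0.39 in the windows and -0.36 elsewhere, and the shares were 4.30% and 5.27%. Over all regions the shares also fell from the widest to the narrowest class, at 20.7%, 3.37% and 0.570%. The medians there were -0.22, 0.01 and 0.10, so the fold change itself went with width across the table. By level, the top quartile of chromosome 19 held 93 window regions, of which 36.6% were called lower, and 682 others, of which 87.4% were. In that quartile the medians were -0.42 and -0.72, and in the lowest quartile -0.41 and -0.36. The distance between the window regions and the others was thus greater among wide and well-filled regions, which is a description with no test.

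**Figure D2:**
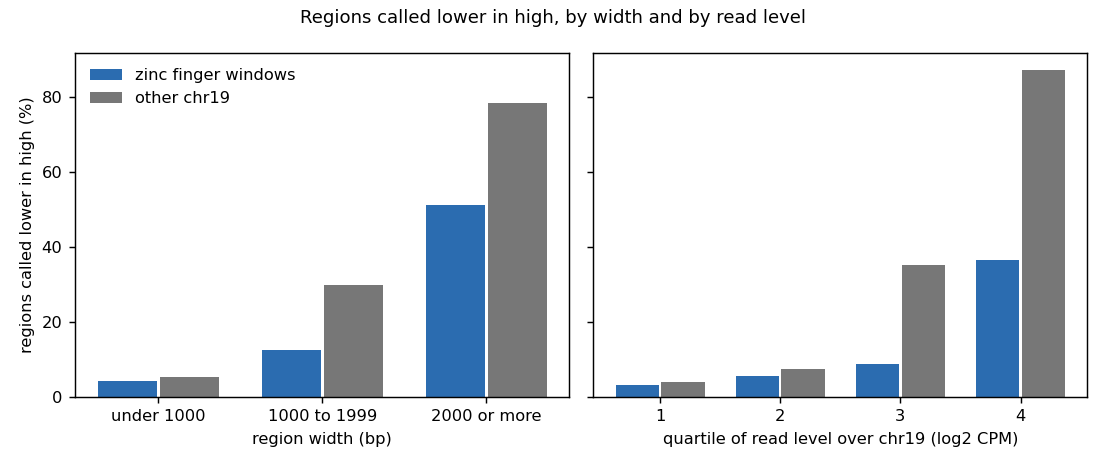
Share of regions called lower in the high population (y axis, percent of regions) by region width in bp (left) and by quartile of read level over chromosome 19 (right), for the zinc finger windows (blue) and the other chromosome 19 regions (grey). In regions of 2000 bp or more the shares are 51.2% and 78.6%, and in the top level quartile 36.6% and 87.4%. Over all regions, not drawn, 20.7% of those of 2000 bp or more are called lower.

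A measure that needs no scaling between libraries is the share of chromosome 19 reads that fell in the windows. This share was 10.4%, 9.95% and 12.1% in high replicates 1, 2 and 3, and 9.02%, 9.02% and 9.84% in mid replicates 1, 2 and 3. Every high library thus lay above every mid library, the closest values being 9.95% and 9.84%. As a log2 ratio to the reads of the other chromosome 19 regions, the high libraries averaged -3.05 ± 0.167 (SD, n = 3) and the mid libraries -3.29 ± 0.0801 (SD, n = 3), a difference of 0.24 or 1.18-fold (p = 0.1 in the same exact permutation test, its lower limit). Within pairs the difference was 0.22, 0.16 and 0.33. It was smaller without high replicate 3, at 0.14 (exact permutation test, two-sided, p = 0.2, the lowest that 2 against 3 can give). In 19p13.2 and 19p12 it then fell from 0.20 in each to 0.085 and 0.075 (exact permutation test, two-sided, p = 0.4 for each). With all libraries, and the median of log2 CPM over regions in place of the sum of reads, the difference for the 6 windows together was 0.11 (exact permutation test, two-sided, p = 0.2).

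Each of the 6 windows took a larger part of the chromosome's reads in the high population, by between 0.15 and 0.34 on the log2 scale. All 18 differences within same-numbered pairs were positive, from 0.04 to 0.44, but the windows share libraries and a common denominator, so they are not 18 independent observations. The 19q13.12 window had the largest difference, with 1.18% ± 0.155 of chromosome 19 reads in high and 0.948% ± 0.0723 in mid libraries (SD, n = 3 each). The 19q13.43 window held 3.30% ± 0.309 and 2.73% ± 0.141 (SD, n = 3). In these 2 windows the populations did not overlap, and in the other 4 they did. The smallest difference was in 19q13.41 to 19q13.42, with 2.08% ± 0.149 and 1.90% ± 0.0777 (SD, n = 3). Adjusted over the 6 windows, every p was 0.2 (exact permutation test, two-sided), a design in which no adjusted p could fall under 0.1.

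**Figure D3:**
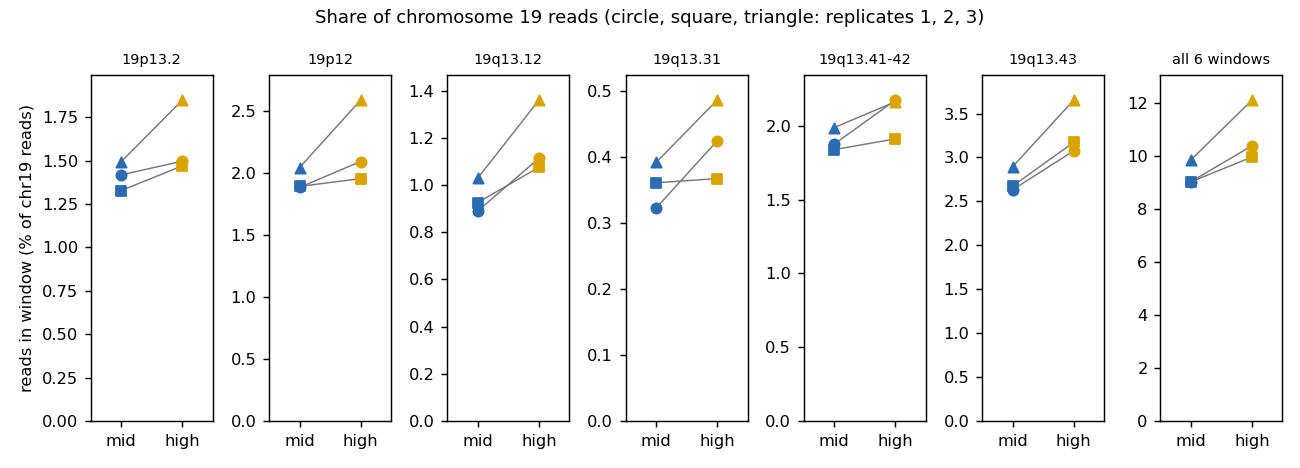
Reads in each window as a percent of all chromosome 19 reads (y axis from 0) for mid (blue) and high (yellow) libraries, with lines joining same-numbered replicates. Every line rises from mid to high; the populations do not overlap in 19q13.12, in 19q13.43 and in the 6 windows together (9.02% to 9.84% against 9.95% to 12.1%).

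As a share of all reads in the table, the windows went the other way. They held 0.342%, 0.360% and 0.467% of reads in high replicates 1, 2 and 3 and 0.459%, 0.480% and 0.489% in mid replicates 1, 2 and 3. High replicate 3 lay above mid replicate 1, so the populations overlapped (difference of the log2 ratio to all other reads -0.30, exact permutation test, two-sided, p = 0.2). High replicate 3 was also the deepest of the high libraries, with 26225539 reads against 17220035 and 15486251. Mid replicates 1, 2 and 3 held 29025274, 23091028 and 26338105 reads, so high replicates 1 and 2 were shallower than every mid library. Depth thus went with population in pairs 1 and 2, and its part in the result was not tested.

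The pairs did not change alike. The median log2 ratio of high over mid across the 322 regions was -0.51 in pair 1, -0.47 in pair 2 and -0.09 in pair 3. Elsewhere on the chromosome the medians were -0.70, -0.52 and -0.31, and over all regions between 0.01 and 0.03. In pair 3 the median was -0.01 in 19q13.43, -0.02 in 19p12 and 0.04 in 19q13.12, but -0.34 in 19q13.41 to 19q13.42, close to the rest of the chromosome. In pair 1 the lowest was 19p13.2, with -0.67. Median spread within the high population was 0.30 (SD of log2 CPM, n = 3) over the window regions and 0.14 within the mid population. Elsewhere on the chromosome these were 0.23 and 0.17, and over all regions 0.25 and 0.22.

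**Figure D4:**
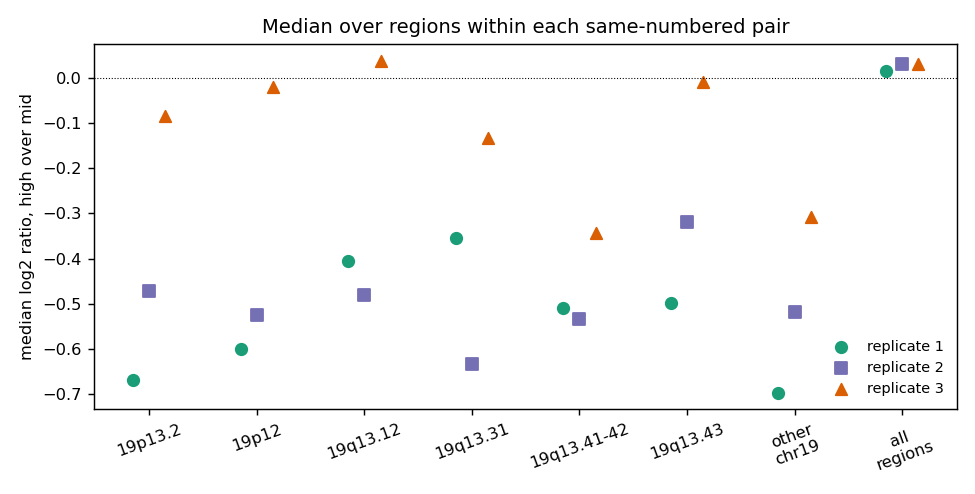
Median over regions of the log2 ratio of high over mid (y axis) in each same-numbered pair (circle, square and triangle for replicates 1, 2 and 3), for the 6 windows, the other chromosome 19 regions and all regions. Pair 3 is nearest to 0 in every window, with medians from -0.34 to 0.04, and over all regions the 3 pairs lie between 0.01 and 0.03.

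The 19p12 window, home of ZNF91 and many primate zinc finger genes, held the 3 called regions with a log2 fold change under -1. The first, chr19:23253915-23254559, is narrow, at 645 bp, and lies at the far side of the empty stretch of 1218 kb. It had 16.8, 17.6 and 10.6 CPM in high replicates 1, 2 and 3 and 33.7, 50.5 and 33.04 CPM in mid replicates 1, 2 and 3. Every mid value lay far above every high value, and no other region of the windows had a higher level per kb (41.9 CPM per kb). Its log2 fold change was -1.39 ± 0.14 (SE; edgeR's quasi-likelihood test, adjusted p = 9.75e-10), and its p ranked 7 among all 118556 regions. The neighbour 2894 bp away, chr19:23257454-23258887, had a log2 fold change of -0.57 (adjusted p = 0.00239 in the same test), and the region before the empty stretch, chr19:22034016-22035444, -0.31 (adjusted p = 0.145).

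The second region of this kind, chr19:21665466-21666342, is 877 bp wide. It had 9.70, 10.03 and 9.00 CPM in the high replicates and 23.3, 30.3 and 19.2 CPM in the mid replicates, so that high libraries lay close together and mid libraries spread more widely. Its log2 fold change was -1.32 ± 0.15 (SE; edgeR's quasi-likelihood test, adjusted p = 2.35e-08). A region that starts only 135 bp further on, chr19:21666478-21667175, had -0.57 (adjusted p = 0.112), and one 7048 bp before it, chr19:21657017-21658417, -0.59 (adjusted p = 0.00453).

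The third, chr19:20369716-20371185, was weaker in reads. It had 3.88, 4.18 and 5.96 CPM in the high replicates and 11.98, 11.9 and 8.62 CPM in the mid replicates, a log2 fold change of -1.19 ± 0.19 (SE; edgeR's quasi-likelihood test, adjusted p = 1.43e-05). Without the replicate 2 pair its adjusted p was 0.0111. Scaled to the other chromosome 19 regions, these 3 were the only window regions called lower, with log2 fold changes of -0.87, -0.79 and -0.68; that is 0.932% of the 322, against 2.09% of the other chromosome 19 regions (58 regions) and 0.102% of all regions on that scale. The region of 19p12 with the most reads, chr19:20162176-20163872, had 38.7, 37.96 and 59.0 CPM in the high replicates and 59.1, 49.6 and 62.9 CPM in the mid replicates. High replicate 3 reached the mid values there, and the region was not called (log2 fold change -0.36, adjusted p = 0.0435, edgeR's quasi-likelihood test); scaled to the other chromosome 19 regions it was 0.16.

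**Figure D5:**
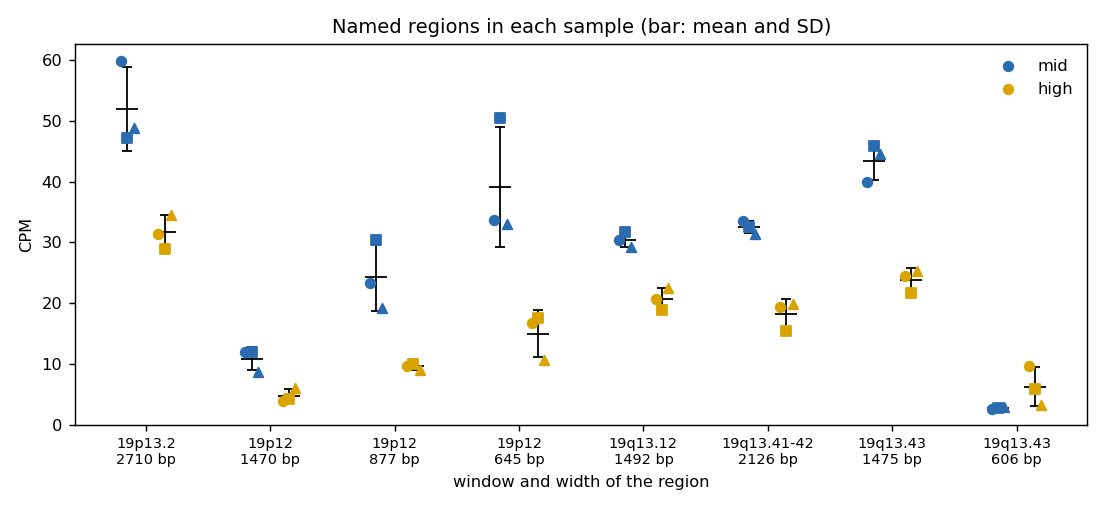
CPM in each sample (y axis from 0; circle, square and triangle for replicates 1, 2 and 3; bars for the mean and SD, n = 3) of the called regions with the smallest p in each window and direction and of those changed more than 2-fold. In the first 7 regions every mid value lies above every high value, and in the 606 bp region of 19q13.43 the high values run from 3.22 to 9.64 and the mid values from 2.63 to 2.84.

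In the 19q13.43 window the leading region was chr19:56651463-56652937 (1475 bp), near the start of the window. It had 24.5, 21.6 and 25.3 CPM in the high replicates and 39.9, 45.9 and 44.5 CPM in the mid replicates, 2 tight groups with a wide gap. The log2 fold change was -0.87 ± 0.13 (SE; edgeR's quasi-likelihood test, adjusted p = 3.68e-06), and -0.34 when scaled to the other chromosome 19 regions (adjusted p = 0.0405), which was no longer a call. The neighbour chr19:56631427-56633685 was also called (-0.65, adjusted p = 0.000311), whereas the next region on the other side, chr19:56664528-56665423, had 0.04 (adjusted p = 0.915). The region with the most reads in this window, chr19:58891271-58893551, averaged 33.4 ± 4.04 CPM in high and 50.7 ± 3.02 CPM in mid libraries (SD, n = 3 each; log2 fold change -0.60, adjusted p = 0.000665).

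The single region higher in the high population, chr19:57823154-57823759, lay in the same window. It had 9.64, 5.84 and 3.22 CPM in high replicates 1, 2 and 3 and 2.63, 2.77 and 2.84 CPM in the mid replicates. The mid libraries hardly differed, and the high libraries were spread widely, with replicate 3 close to the mid values. The log2 fold change was 1.07 ± 0.23 (SE; edgeR's quasi-likelihood test, adjusted p = 0.000707). Without the replicate 1 pair it was 0.61 (adjusted p = 0.1003) and without the replicate 2 pair 1.06 (adjusted p = 0.0191). DESeq2 gave 1.04 (adjusted p = 0.0140) and edgeR with no replicate block 1.16 (adjusted p = 0.0237), so that the call was lost in each of these. The regions on both sides, chr19:57814175-57814793 and chr19:57831139-57832662, had 0.16 and -0.32 and were not called.

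In the 19q13.41 to 19q13.42 window, with the largest share of called regions, the smallest p belonged to chr19:53444631-53446756 (2126 bp). It had 19.4, 15.4 and 19.9 CPM in the high replicates and 33.5, 32.6 and 31.4 CPM in the mid replicates, with a log2 fold change of -0.83 ± 0.14 (SE; edgeR's quasi-likelihood test, adjusted p = 1.79e-05). The largest change, -0.93, was in a region with few reads, chr19:53251506-53252360, with means of 2.20 ± 0.441 and 4.26 ± 0.724 CPM (SD, n = 3). The most reads were in chr19:52691732-52694583 (2852 bp), which had 47.8, 49.1 and 63.6 CPM in the high replicates and 82.7, 82.1 and 84.3 CPM in the mid replicates. It was called (-0.64, adjusted p = 0.000117) together with chr19:52641591-52643845 (-0.73, adjusted p = 0.000145). Another called region, chr19:53699525-53701334, had means of 7.74 ± 0.283 and 14.5 ± 0.9996 CPM (SD, n = 3; log2 fold change -0.90, adjusted p = 9.47e-05).

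In the 19p13.2 window, 1 region had the most reads, the largest change and the smallest p among called regions, chr19:12097473-12100182 (2710 bp). It had 31.4, 29.0 and 34.5 CPM in the high replicates and 59.8, 47.1 and 48.8 CPM in the mid replicates, with a log2 fold change of -0.71 ± 0.13 (SE; edgeR's quasi-likelihood test, adjusted p = 7.29e-05). In 19q13.12 the leading called region was chr19:37807796-37809287, with means of 20.7 ± 1.82 CPM in the high and 30.4 ± 1.26 CPM in the mid population (SD, n = 3; log2 fold change -0.56, adjusted p = 0.00334). Its region with the most reads, chr19:36979576-36981494, missed the threshold (-0.46, adjusted p = 0.0123), and so did that of 19q13.31, chr19:44616905-44618201 (-0.46, adjusted p = 0.0285), although in both every mid value lay above every high value. Scaled to the other chromosome 19 regions, both had positive fold changes, 0.06 and 0.07. A last called region of 19p12, chr19:21881068-21882760, had -0.89 (adjusted p = 0.000290).

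On the scale of the other chromosome 19 regions, 11 window regions (3.42%) were higher in the high population. With that scaling 28.7% of all regions were called higher, since chromosome 19 as a whole then counts as unchanged, and 1.48% of the other chromosome 19 regions were. The 11 lay in 19q13.43 (4), 19q13.12 (3), 19p13.2 (2) and 19p12 (2), and 10 of them had log2 fold changes between -0.05 and 0.29 on the scale of all regions and were not called there. The largest of these 10, chosen after its values were seen, was chr19:21404242-21405805 in 19p12, with means of 8.73 CPM in the high and 7.14 CPM in the mid population (log2 fold change 0.29, adjusted p = 0.278, and 0.81 scaled to the other chromosome 19 regions, adjusted p = 0.000857).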

How the data were processed

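FAST-ATAC libraries of 3 high and 3 mid replicates of WA09 cells were analysed. The authors used Trimmomatic for trimming and BWA (0.7.15 in the submitters' processing notes) for alignment to hg19. They took out duplicates, moved each read towards its Tn5 insertion, ran MACS on combined replicates, joined the intervals of both populations, dropped blacklisted ones and deposited raw read counts per interval and sample.

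Counts of all 118556 regions were fitted by edgeR's quasi-likelihood model (version 4.0.16 under R 4.3.3), unfiltered and TMM-scaled, on population plus a block of 3 replicate numbers, since the methods name batch as a covariate, with Benjamini-Hochberg adjustment over all regions and calls under 0.01. Replicate numbers come from the sample titles, and deviations of same-numbered samples correlated across all regions with r of 0.19 to 0.30, so they were treated as pairs. A filter of CPM above 1 in 3 samples would keep 321 of the 322 regions. Exact permutation tests used scipy 1.17.1. Alternatives covered the block, DESeq2 1.42.0, scaling (loess by limma 3.58.1, span 0.3), filter, threshold, membership and samples left out. The fit was also run on simulated counts, which held no replicate effect and no shift of a whole chromosome, so that run says nothing on either. The SE of a log2 fold change was derived as its absolute value over the square root of the test's F statistic. Region starts are counted from 1. Named regions are, per window and direction, the called ones with the largest change and smallest p and all pairs alike, the one with most reads, and the 10 smallest p overall; neighbours of these are given beside them. The windows, rules and tests were chosen with earlier results of these data known. Coordinates were not converted between builds, so gene names and sequences per region are not given.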

Additional observations from a re-analysis of the deposited data

How the results depend on the processing

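Calls in the windows depended on scaling, block and replicates, and the cause was not tested. Against 49 regions lower and 1 higher in the high population, no replicate block gave 10 and 0, loess offsets on average log2 CPM 27 lower, a threshold of 0.05 gave 90 lower, DESeq2 gave 0 higher, and TMM on the other chromosome 19 regions 3 and 11. Leaving out single samples or pairs gave 2 to 77 lower and 0 to 1 higher. Over all regions, the loess offsets took the lower calls from 4472 to 3132, and DESeq2 took the higher calls from 2747 to 990. Elsewhere on the chromosome, the lower calls went from 910 to 824 with these offsets and to 1238 at the threshold of 0.05. The excess of calls elsewhere on the chromosome (percentage called lower, windows minus others) kept its sign throughout: it was -17.6 percentage points, -1.16 with TMM on the other chromosome 19 regions, and -16.75 to -6.295 with samples or pairs left out. The median log2 fold change of the windows (-0.35) became 0.17 with TMM on the other chromosome 19 regions, which moved the median of all regions from 0.03 to 0.55. The windows' median exceeded that of the other chromosome 19 regions in all 18 alternatives, by 0.11 to 0.18. A scaling factor per library moves both medians alike, so refits that changed only such factors could hardly change this difference. Membership by any overlap left it at 0.137, and refits without 1 library nearly repeat those without its pair. The 18 are thus not separate checks.

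The log2 ratio of window reads to other chromosome 19 reads (0.24 higher in the high population) turned to -0.30 against all reads outside the windows. For single windows in the order of position it was then -0.34, -0.34, -0.20, -0.27, -0.39 and -0.25. With the median over regions in place of the sum it was 0.11, and 19p12 turned to -0.0055. Leaving out single libraries gave 0.14 to 0.30, the lowest without high replicate 3. Weighting the other regions to the widths in the windows gave 0.19 (exact permutation test, two-sided, p = 0.2, against 0.1 unweighted). For single windows in the order of position the weighted values were 0.21, 0.088, 0.25, 0.12, 0.13 and 0.25. The lowest were those of 19p12 (exact permutation test, two-sided, p = 0.7) and 19q13.31 (exact permutation test, two-sided, p = 0.4). Leaving out regions of 4000 bp or more gave 0.20 (exact permutation test, two-sided, p = 0.2). The mean within the replicate block was 0.24 (exact sign-flip test, two-sided, p = 0.25, the smallest possible). Scaled to the other chromosome 19 regions, the regions with most reads in 19p12, 19q13.12 and 19q13.31 turned to 0.16, 0.059 and 0.066. The calls at chr19:23253915-23254559 and chr19:21665466-21666342 held in all 17 refits, and that at chr19:57823154-57823759 in 9 of 17. The refits share libraries, and those without 1 library nearly repeat those without its pair.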
